A study of Homo sapiens with 6 samples.

Results

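The G1 cyclins and the inhibitors of their kinases were followed by RNA sequencing after knockdown of CNOT7, a deadenylase subunit of the CCR4-NOT complex that shortens the poly(A) tails of mRNAs. The set was named gene by gene and holds 10 of the 58735 genes in the count table: the D-type cyclin genes CCND1, CCND2 and CCND3, the E-type cyclin genes CCNE1 and CCNE2, the CIP/KIP inhibitor genes CDKN1B and CDKN1C, and the INK4 inhibitor genes CDKN2B, CDKN2C and CDKN2D. All 10 passed the filter on low counts, which left 17574 genes to test. The 6 libraries came from the cell line that the labels call sw480, described as human colorectal cancer cells, with 3 libraries of genotype CNOT7 control and 3 of CNOT7 knockdown, and the treatment given as none. The study's text names HCT116, another colorectal cancer line, for its RNA sequencing. The study's methods describe lentiviral shRNA vectors against CNOT7. Which shRNA the knockdown libraries carry, whether a line was 1 clone, and whether the 3 libraries of a group were separate cultures is not given in the sources used here, so the p-values measure only the spread between these libraries, which may be technical. The question asked of the set was whether its changes go with fewer cells entering S phase. Cell cycle phase was not measured in these libraries.

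Cells leave G1 when cyclin D with CDK4 or CDK6, and then cyclin E with CDK2, phosphorylate the RB proteins and free the E2F transcription factors to switch on genes for DNA synthesis. INK4 proteins bind CDK4 and CDK6 and block their pairing with cyclin D, whereas CIP/KIP proteins bind assembled cyclin-CDK complexes and block CDK2 above all. In colorectal epithelium CCND1 is a known target of Wnt signalling, and high cyclin D is common in colorectal cancer.

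CNOT7 was measured at 169.1, 191.1 and 175.8 CPM (the read count of a gene scaled to a common library size, with TMM factors) in the control libraries and at 43.4, 47.2 and 38.6 CPM in the knockdown libraries. Its log2 fold change was -2.05 (SE 0.0734, adjusted p = 2.64e-12). Every adjusted p given here is two-sided, comes from the edgeR quasi-likelihood fit and was adjusted by the Benjamini-Hochberg method over all tested genes. Total counts lay between 23788451 and 25982493 in the control libraries and between 27523812 and 29104872 in the knockdown libraries, so that the groups did not overlap in depth. The share of counts on the mitochondrial rRNA genes also moved with the group, from 0.990% to 1.05% in the control libraries against 1.44% to 1.58% in the knockdown libraries, and its part in the results was not tested. Of 12 colorectal epithelium markers, KRT8, KRT18, KRT19 and EPCAM were abundant, at 2750, 2025, 720.2 and 212.3 CPM in the control libraries, whereas KRT20, CDX1 and LGALS4 were at or near 0. Of the 9 epithelial markers tested, 3 were higher and 2 lower with knockdown. VIL1 and CDH1 rose with log2 fold changes of 0.72 and 0.51 (adjusted p = 2.93e-05 and 1.55e-04), and GPA33 was called higher at 0.0703 against 0.552 CPM (adjusted p = 0.00304). KRT19 and KRT8 fell with log2 fold changes of -0.18 and -0.15 (adjusted p = 0.0212 and 0.0414). The part of these shifts in the results was not tested. The summed levels of the fibroblast, immune and endothelial lists were at most 11.95, 4.43 and 3.48 CPM in any library. These sums ranged from 9.07 to 10.8, 2.32 to 4.07 and 1.68 to 2.33 CPM in the control libraries and began at 10.2, 4.17 and 2.75 CPM in the knockdown libraries, so that the immune and endothelial sums did not overlap between groups. Of the fibroblast list, COL3A1 and DCN had no counts.

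Of the 10 genes, 5 passed an adjusted p of 0.05. CCND2 and CDKN1C were higher with CNOT7 knockdown, and CCND1, CCND3 and CCNE2 were lower. In bulk RNA, fewer cells of a kind (here, of a cell cycle phase) and less RNA per cell cannot be told apart. Across all tested genes 13.3% were called higher and 11.9% lower. The same 5 genes had groups that did not overlap, as did 38.8% of all tested genes. By role, 3 of the 5 cyclins fell and 1 rose, while 1 of the 5 inhibitors rose and 0 fell. The median log2 fold change of the 10 genes was 0.012, against 0.0039 over all tested genes. All 5 calls held in each of 13 alternative fits: DESeq2, RLE factors, 2 other filters on low counts, a replicate block, removal of the trend with abundance, libraries thinned to equal depth, and each library left out in turn. With an absolute log2 fold change of at least 1 required as well, 1 gene stayed higher (CCND2) and 0 lower, since the changes of the other 4 called genes were smaller.

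**Figure D1:**
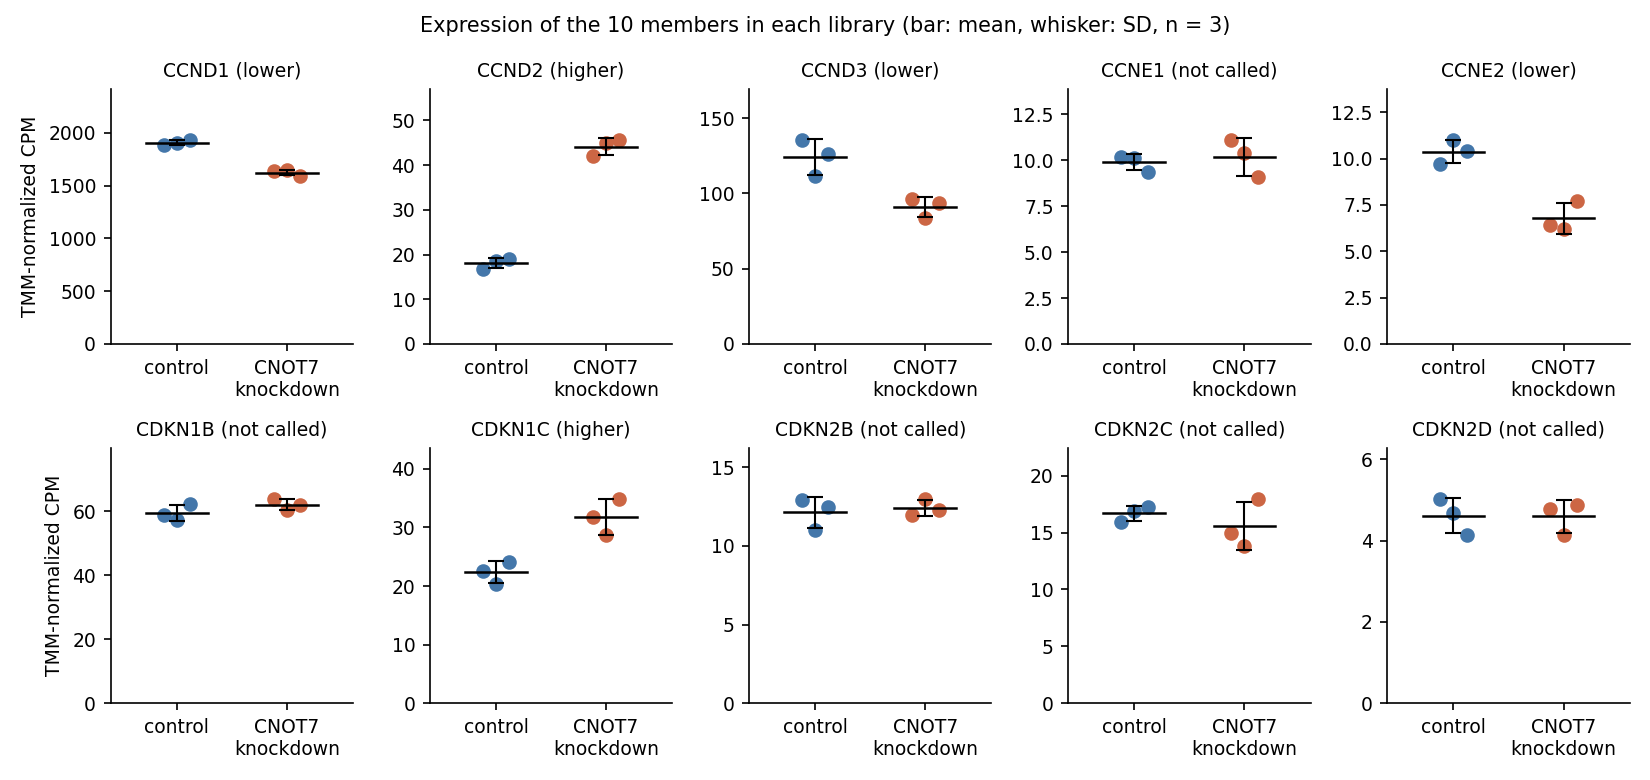
TMM-normalized CPM (y axis, from 0) of each of the 10 genes in the 3 control (blue) and 3 CNOT7 knockdown (orange) libraries, with the mean as a bar and the SD as a whisker. CCND1, CCND3 and CCNE2 sit lower and CCND2 and CDKN1C higher in all 3 knockdown libraries than in any control library.

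CCND1 encodes cyclin D1, the main D-type cyclin of many epithelial cells. It was measured at 1884, 1907 and 1932 CPM in the control libraries and at 1634, 1644 and 1594 CPM in the knockdown libraries. The highest knockdown library lay below the lowest control library. CCND1 fell by 14.9%, a log2 fold change of -0.23 (SE 0.0432, 95% interval from -0.32 to -0.14, adjusted p = 7.19e-04). With the trend with abundance removed the log2 fold change was -0.15 (adjusted p = 0.00928). On chromosome 11 (GRCh38, 69641087 to 69654474, forward strand), 10.3% of its exonic bases overlap LTO1 on the other strand. LTO1 had 676 to 797 counts in the control libraries and 777 to 803 in the knockdown libraries, far below CCND1, which had at least 44355 counts in every library.

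CCND2 encodes cyclin D2, and was the gene of the set with the largest change. It stood at 16.8, 18.6 and 19.0 CPM in the control libraries and at 42.0, 44.9 and 45.6 CPM in the knockdown libraries, with a wide gap between the groups. This was a 2.43-fold rise, a log2 fold change of 1.28 (SE 0.0774, 95% interval from 1.12 to 1.45, adjusted p = 3.29e-09). Of all tested genes, 2.08% had a larger absolute log2 fold change. The log2 fold change stayed between 1.23 and 1.32 in the 13 alternative fits. CCND2 lies on chromosome 12 (4273772 to 4305350, forward strand). AC008012.1 on the same strand, which had no counts, overlaps 13.8% of the exonic bases of CCND2. Reads in those bases may have gone uncounted for both genes, so the level of CCND2 may be too low. CCND2-AS1, which overlaps on the other strand, had 0 to 2 counts in the control and 0 to 14 in the knockdown libraries. CCND2 had at least 432 counts in every library.

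CCND3 encodes cyclin D3. It was measured at 135.5, 111.6 and 125.8 CPM in the control libraries and at 96.3, 83.6 and 93.7 CPM in the knockdown libraries. Replicate 2 was the lowest library of each group, and the groups did not overlap. CCND3 fell by 26.6%, a log2 fold change of -0.45 (SE 0.0724, 95% interval from -0.60 to -0.29, adjusted p = 2.08e-04). It lies on the reverse strand of chromosome 6 (41934933 to 42050357), where 24 of its exonic bases overlap AL513008.1, which had at most 1 count in any library.

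Levels of different genes were compared per length, as CPM per kilobase of exon. Bases shared with another gene, 37.0% in CCNE2, 13.8% in CCND2 and 10.3% in CCND1, were kept in these lengths. Reads there may have gone uncounted, so the levels per length of these genes may be too low. CCND1 made up 94.3% ± 0.471 (SD, n = 3) of the summed level of the D-type cyclins in the control libraries and 93.9% ± 0.344 in the knockdown libraries. CCND3 made up 5.11% ± 0.499 and 4.39% ± 0.345, and CCND2 0.605% ± 0.0338 and 1.72% ± 0.0918. The summed level was 415.7 to 424.4 CPM per kilobase in the control libraries and 352.4 to 361.0 in the knockdown libraries, so the rise of CCND2 was small beside the fall of CCND1 on this scale. Within a library, the log2 ratio of CCND2 to CCND1 in CPM went from -6.72 ± 0.0761 (SD, n = 3) in the control libraries to -5.20 ± 0.0781 in the knockdown libraries, and that of CCND2 to CCND3 from -2.77 ± 0.214 to -1.04 ± 0.149. The exact two-sided permutation p was 0.1 for each, the smallest that 3 libraries against 3 can give. Since CCND2 rose and the other genes fell, each without overlap, this outcome was fixed by the calls above and is no separate result.

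CCNE1 and CCNE2 encode the E-type cyclins, which activate CDK2 late in G1. CCNE1 was at 10.2, 10.1 and 9.38 CPM in the control libraries and at 11.1, 10.4 and 9.07 CPM in the knockdown libraries. The knockdown libraries spanned the whole range of the controls, and the log2 fold change was 0.042 (SE 0.109, adjusted p = 0.826), with a 95% interval from -0.19 to 0.27. CCNE1 lies on chromosome 19 (29811898 to 29824308, forward strand).

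CCNE2 was at 9.73, 11.01 and 10.4 CPM in the control libraries and at 6.42, 6.20 and 7.72 CPM in the knockdown libraries. Knockdown replicate 3 was the nearest to the controls and still lay below all of them. CCNE2 fell by 34.6%, a log2 fold change of -0.61 (SE 0.118, 95% interval from -0.86 to -0.36, adjusted p = 9.86e-04), on 171 to 261 counts in a library. It lies on the reverse strand of chromosome 8 (94879770 to 94896678), and 37.0% of its exonic bases overlap INTS8 on the other strand. INTS8 had 1426 to 1542 counts in the control and 1630 to 1869 in the deeper knockdown libraries, and after normalization the log2 fold change of INTS8 was 0.023 (SE 0.0746, adjusted p = 0.858). Whether the counting used strand is not given in the sources used here, and without strand the reads of such a pair cannot be told apart. AC087752.4, which shares 4 bases with CCNE2, had at most 10 counts in any library.

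The log2 ratio of CCNE1 to CCNE2 within a library was -0.069 ± 0.115 (SD, n = 3) in the control libraries and 0.59 ± 0.311 in the knockdown libraries. The difference was 0.66, with ranges that did not overlap (exact two-sided permutation p = 0.1, the smallest possible). The fall of CCNE2 enters this ratio, so the ratio is no separate result. Per length, CCNE1 made up 62.2% ± 1.86 of the E-type cyclin level in the control libraries and 72.0% ± 4.44 in the knockdown libraries. These shares may be too high, since reads in the bases that CCNE2 shares with INTS8 may have gone uncounted. The summed E-type level was 6.05 to 6.48 CPM per kilobase in the control and 5.31 to 5.82 in the knockdown libraries.

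**Figure D2:**
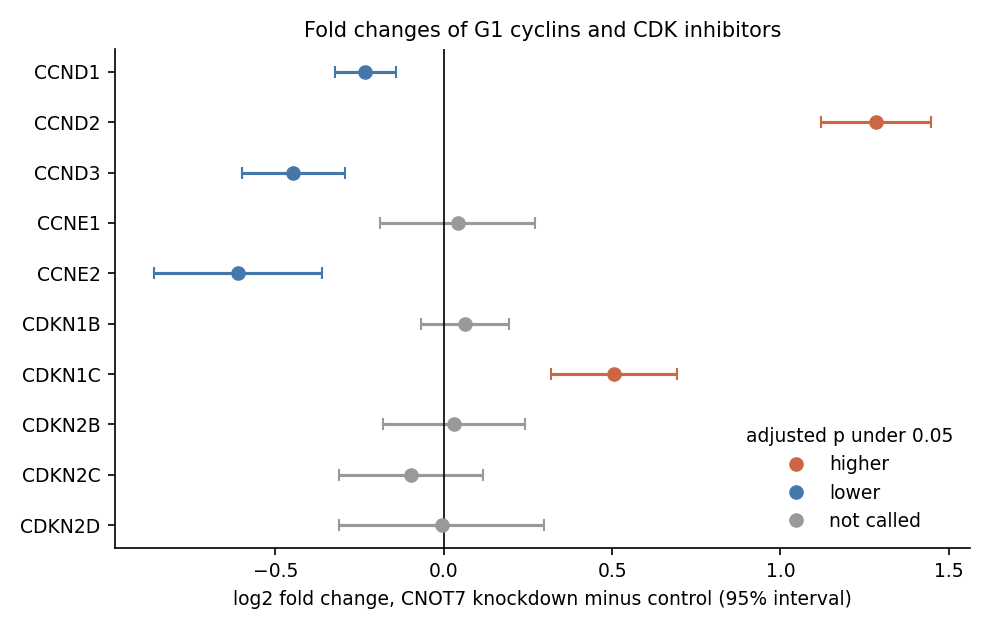
Log2 fold change of each of the 10 genes, CNOT7 knockdown minus control (x axis), with its 95% interval as a whisker, coloured by whether the adjusted p was under 0.05. CCND2 at 1.28 and CDKN1C at 0.51 lie above 0, CCND1, CCND3 and CCNE2 lie below 0, and the intervals of the other 5 genes cover 0.

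CDKN1C, an imprinted gene, encodes the CIP/KIP inhibitor p57. It was measured at 22.6, 20.4 and 24.1 CPM in the control libraries and at 31.8, 28.7 and 34.8 CPM in the knockdown libraries. The lowest knockdown library lay above the highest control library. CDKN1C rose by 42.0%, a log2 fold change of 0.51 (SE 0.0888, 95% interval from 0.32 to 0.69, adjusted p = 4.29e-04), and lies on the reverse strand of chromosome 11 (2883213 to 2885773).

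CDKN1B encodes p27, the CIP/KIP inhibitor whose protein is removed by the SKP2 ubiquitin ligase as cells enter S phase. It was at 58.8, 57.1 and 62.1 CPM in the control libraries and at 63.7, 60.4 and 61.8 CPM in the knockdown libraries. The groups overlapped, and the log2 fold change was 0.063 (SE 0.0622, 95% interval from -0.068 to 0.19, adjusted p = 0.508). CDKN1B lies on chromosome 12 (12715058 to 12722371, forward strand). Per length it made up 70.1% ± 0.947 of the summed level of CDKN1B and CDKN1C in the control libraries and 63.3% ± 2.04 in the knockdown libraries. CDKN1A, the p21 gene of the same family, is no member of the set and is not in this sum. It was at 100.3, 92.1 and 99.9 CPM in the control and at 124.6, 111.9 and 128.8 CPM in the knockdown libraries, a log2 fold change of 0.32 (SE 0.0636, adjusted p = 0.00124), with groups that did not overlap.

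The INK4 genes CDKN2B (p15, known to respond to TGF-beta), CDKN2C (p18) and CDKN2D (p19) did not pass the test, and the groups overlapped for each. CDKN2B ranged from 11.01 to 12.9 CPM in the control libraries and from 11.96 to 13.0 CPM in the knockdown libraries, with a log2 fold change of 0.030 (95% interval from -0.18 to 0.24, adjusted p = 0.862). CDKN2C ranged from 16.0 to 17.2 and from 13.8 to 17.9 CPM, with a log2 fold change of -0.098 (95% interval from -0.31 to 0.12, adjusted p = 0.532). CDKN2D, the lowest of the set with 104 to 145 counts in a library, ranged from 4.15 to 5.02 and from 4.13 to 4.87 CPM, with a log2 fold change of -0.0060 (95% interval from -0.31 to 0.30, adjusted p = 0.983). The interval of CDKN2D takes in a change of the size seen for CCND1 in either direction, that of CDKN2B only a rise of that size and that of CDKN2C only a fall. The summed level of CDKN2B, CDKN2C and CDKN2D was 10.9 to 11.3 CPM per kilobase in the control and 10.1 to 11.7 in the knockdown libraries. CDKN2A, the remaining INK4 gene and no member of the set, is not in this sum, though its own level was above it. CDKN2A stood at 12.4 ± 1.55 CPM per kilobase (SD) in the control and 12.5 ± 1.85 in the knockdown libraries. Its log2 fold change was 0.018 (SE 0.0982, adjusted p = 0.920). CDKN2B lies on chromosome 9 (22002903 to 22009363, reverse strand), CDKN2C on chromosome 1 (50960745 to 50974633, forward strand) and CDKN2D on chromosome 19 (10566462 to 10569059, reverse strand). These genes, CCNE1, CDKN1B and CDKN1C share no exonic base with another annotated gene.

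In the order of levels per length in the control libraries, CCND1 came first at 395.0 ± 5.01 CPM per kilobase (SD, n = 3), followed by CCND3 at 21.4 ± 2.07, CDKN1B at 21.1 ± 0.907, CDKN1C at 9.02 ± 0.756, CDKN2C at 5.03 ± 0.200, CCNE1 at 3.88 ± 0.176, CDKN2D at 3.07 ± 0.292, CDKN2B at 2.99 ± 0.247, CCND2 at 2.54 ± 0.161 and CCNE2 at 2.36 ± 0.145. Neighbours whose libraries overlapped were CCND3 with CDKN1B, CDKN2D with CDKN2B, and CCND2 with CCNE2. In the knockdown libraries CDKN1B, at 22.0 ± 0.585, stood above CCND3, at 15.7 ± 1.15, with no overlap. CCND2, at 6.17 ± 0.267, had moved up to the fifth place, above CDKN2C at 4.70 ± 0.636. CCNE2 stayed last at 1.54 ± 0.187 CPM per kilobase, a level that its bases shared with INTS8 may lower.

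**Figure D3:**
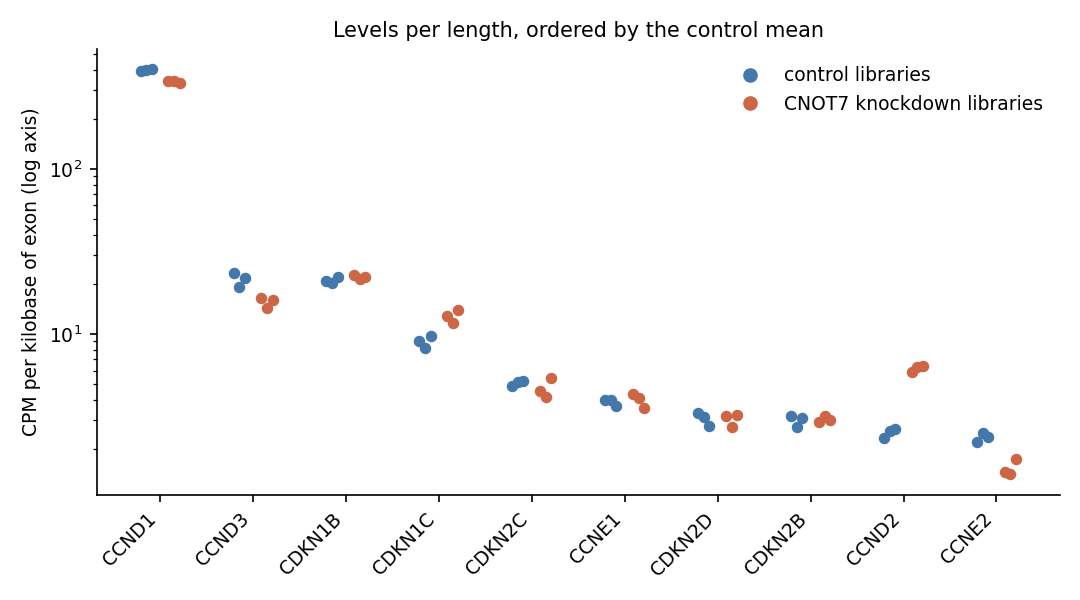
CPM per kilobase of exon (y axis, log scale) of each gene in the control (blue) and CNOT7 knockdown (orange) libraries, ordered by the control mean. CCND1 lies more than an order of magnitude above the other genes in both groups, and CCND2 moves from 2.54 to 6.17 CPM per kilobase on average.

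CCR4-NOT is brought to its target mRNAs by microRNAs and by RNA-binding proteins, and several G1 regulators are well-known targets of miR-16 and miR-221. The 3′ UTRs of the 10 genes were therefore read for the words that pair with microRNA seeds, for the Pumilio element and for the AU-rich pentamer, on the sense strand and in 1 GENCODE transcript per gene. The words were chosen after the values of the genes had been seen, microRNA levels were not measured, and a match is a description and not a proven site. Since miR-16 and miR-221 were picked as known to target G1 regulators, the shares of genes with their words follow from that choice. They are no result about the set. The mature sequences from RefSeq (GRCh38.p14) are printed here 5′ to 3′ with the seed, bases 2 to 8, in capitals.

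hsa-miR-16-5p: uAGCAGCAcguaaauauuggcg

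hsa-miR-221-3p: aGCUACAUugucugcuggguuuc

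The word TGCTGCT, which pairs with the miR-16 seed, lay in 4 of the 5 cyclin genes and in 0 of the 5 inhibitor genes, and in 22.3% of 13489 tested genes with a 3′ UTR. CCND1, CCND2 and CCND3 had 1 match each and CCNE1 had 2, whereas CCNE2 had none. The matches are shown because they include all 3 D-type cyclins, which moved in both directions, and CCNE1, which did not pass the test. Each is given as sense-strand DNA letters on GRCh38 with the word in capitals and 10 bases on each side.

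CCND1, chr11:69653305-69653331, forward strand: tcacattgttTGCTGCTattggaggat

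CCND2, chr12:4301763-4301789, forward strand: tcacagagtgTGCTGCTattttataaa

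CCND3, chr6:41935310-41935336, reverse strand: ttgacagcttTGCTGCTgaaggctcat

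CCNE1, chr19:29824014-29824040, forward strand: gtgctcccgaTGCTGCTatggaaggtg

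CCNE1, chr19:29824252-29824278, forward strand: gttttgtaagTGCTGCTatatctatcc

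The word ATGTAGC, which pairs with the miR-221 seed, lay in 3 of the 5 inhibitor genes and in 1 of the 5 cyclin genes, against 7.98% of the tested genes. CDKN1B had 2 matches, and CDKN1C, CDKN2B and CCND2 had 1 each. The matches of both CIP/KIP genes are shown, of which CDKN1C rose and CDKN1B did not pass the test.

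CDKN1B, chr12:12721218-12721244, forward strand: aaagcgttggATGTAGCattatgcaat

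CDKN1B, chr12:12721291-12721317, forward strand: tttaccttttATGTAGCacataaactt

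CDKN1C, chr11:2883819-2883845, reverse strand: gggaccgttcATGTAGCagcaaccggc

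The Pumilio element TGTANATA lay in 3 of the 10 genes, with 2 matches in CDKN1B, 2 in CCNE2 and 1 in CCND2, against 26.2% of the tested genes. In CDKN1B 1 of them stands between both miR-221 words, at chr12:12721270-12721297 on the forward strand, and is printed for that neighbourhood.

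CDKN1B Pumilio element: gtactacctgTGTATATAgtttttacct

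The pentamer ATTTA lay in 9 of the 10 genes, all but CCNE1, against 68.2% of the tested genes, and the let-7 word CTACCTC lay in 0 of the 10, against 9.83%. The 3′ UTRs differed in length, from 363 bases in CDKN2C to 5341 bases in CCND2, with a median of 1061 bases over the tested genes, and the shares were not matched for length.

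The partners of the G1 cyclins and their inhibitors were read from lists of pathway genes. Of 8 tested kinase genes and activators, 1 was lower and 0 were higher, with a median log2 fold change of -0.032. This 12.5% lower lies near the 11.9% of all tested genes, of which 13.3% were higher. CDC25A, the phosphatase that activates CDK2, fell from 62.2 ± 1.79 CPM (SD, n = 3) to 46.7 ± 1.802 CPM, a log2 fold change of -0.41 (SE 0.0635, adjusted p = 1.23e-04). Of the partner kinases, CDK4 had a log2 fold change of -0.10 (adjusted p = 0.211), CDK6 of 0.17 (adjusted p = 0.0510) and CDK2 of -0.12 (adjusted p = 0.130). CDK6 passed in 5 of the 13 alternative fits, CDK2 in 1 and CDK4 in 0. These kinases were named after their values had been seen.

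Among the 13 RB, E2F and DP genes, 8 (61.5%) were lower and 2 (15.4%) were higher, against 11.9% and 13.3% of all tested genes. The median log2 fold change was -0.25. E2F2, an activator E2F, went from 27.6 ± 1.33 to 17.2 ± 1.93 CPM (SD, n = 3), which is a fitted log2 change of -0.68 (SE 0.0909, adjusted p = 2.90e-05). E2F8, an atypical repressor E2F, had a log2 fold change of -0.49, E2F3, another activator, of -0.44, RBL1, which encodes p107, of -0.32, and E2F4, the main repressor E2F, of -0.25. Both higher genes, TFDP2 at 0.30 and RBL2 at 0.19, encode partners of the repressor E2Fs among others. RBL2, named after its values had been seen, had an adjusted p of 0.0482 and passed in only 5 of the 13 alternative fits. RB1 itself had a log2 fold change of -0.032 (adjusted p = 0.786), also named after its values were seen. Without control replicate 3, 5 genes of this list were lower. Without control replicate 1, control replicate 3 or any single knockdown library, 1 was higher.

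Of 8 tested genes of the MuvB, MYB and FOXM1 group, which works with E2F on cell cycle promoters, 4 (50%) were lower and 0 higher. Over all tested genes 11.9% were lower and 13.3% higher. The median log2 fold change of the group was -0.21. The lower genes were MYBL1 at -0.53 (adjusted p = 9.14e-05), LIN52 at -0.43, FOXM1 at -0.25 and MYBL2 at -0.21. Among 11 genes for the turnover of G1 cyclins and p27, FBXO31, a ubiquitin ligase subunit linked to cyclin D1, rose with a log2 fold change of 0.39 (adjusted p = 4.20e-04), and RBX1 at -0.26, CKS1B at -0.18 and CUL1 at -0.17 fell. In this turnover group 27.3% were lower and 9.09% higher. Its count of lower genes fell from 3 to 1 without control replicate 2 or control replicate 3, and to 0 without knockdown replicate 1. SKP2 and FBXW7, the receptors for p27 and cyclin E, had log2 fold changes of 0.017 (adjusted p = 0.899) and 0.045 (adjusted p = 0.777). Both were named after their values had been seen.

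Of 11 transcriptional regulators placed upstream of the set, 3 (27.3%) were higher and 0 lower, against 13.3% and 11.9% of all tested genes. Their median log2 fold change was 0.043. MYC, which is known to induce CCND2, rose from 248.7 ± 5.56 to 324.8 ± 10.5 CPM (SD, n = 3), which is a fitted log2 change of 0.39 (SE 0.0505, adjusted p = 2.52e-05). FOXO4 and FOXO1, from a family known to act on CDKN1B and the D-type cyclins, rose with log2 fold changes of 0.44 (adjusted p = 0.00705) and 0.33 (adjusted p = 0.00847). Of 7 tested cyclins of later phases or other roles, 1 was lower and 0 higher, and this 14.3% lower lies near the share of all tested genes. CCNA2, which encodes the S-phase and G2 cyclin A2, fell from 170.0 ± 7.06 to 139.4 ± 7.67 CPM (SD, n = 3), which is a fitted log2 change of -0.29 (SE 0.0578, adjusted p = 0.00145).

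Of 42 tested genes of S phase, 22 (52.4%) were lower and 0 higher, against 11.9% and 13.3% of all tested genes. The median log2 fold change was -0.20. The list holds CCNE2 itself, and without it 21 of 41 were lower and 0 higher, with a median of -0.19. The summed level of the list was 5710 to 5844 CPM in the control libraries and 4900 to 5135 CPM in the knockdown libraries, with no overlap. UHRF1, which brings the maintenance DNA methyltransferase to new DNA, fell with a log2 fold change of -0.52 (adjusted p = 3.92e-06). CLSPN, a replication checkpoint adaptor, had a log2 fold change of -0.60, RRM2, a subunit of ribonucleotide reductase, of -0.47, CDC6, which loads the replicative helicase, of -0.42, and FEN1, which trims Okazaki fragments, of -0.36. E2F8 is on this list too. The count of lower genes ran from 16 without knockdown replicate 1 to 28 with the replicate block or without knockdown replicate 2. It was 17 without control replicate 3 and with the trend with abundance removed.

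Of 54 genes of G2 and mitosis, 15 (27.8%) were lower and 2 (3.70%) higher, against 11.9% and 13.3% of all tested genes. The median log2 fold change was -0.066. The summed levels overlapped between groups, at 12021 to 12821 CPM in the control and 11356 to 12225 CPM in the knockdown libraries. KIF23, a kinesin of cytokinesis, fell with a log2 fold change of -0.32, CTCF, known as a chromatin insulator protein, with -0.31, GTSE1 with -0.28 and HJURP, the chaperone of the centromeric histone, with -0.23. CKS1B of the turnover group is on this list too, among the lower genes. PSRC1 and NEK2, which act on the spindle and the centrosome, rose with log2 fold changes of 0.42 and 0.29. The count of lower genes was 9 without control replicate 2, 7 without control replicate 3, 9 without knockdown replicate 1, and 8 with the trend with abundance removed. The S-phase and mitosis lists were not tested against each other.

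**Figure D4:**
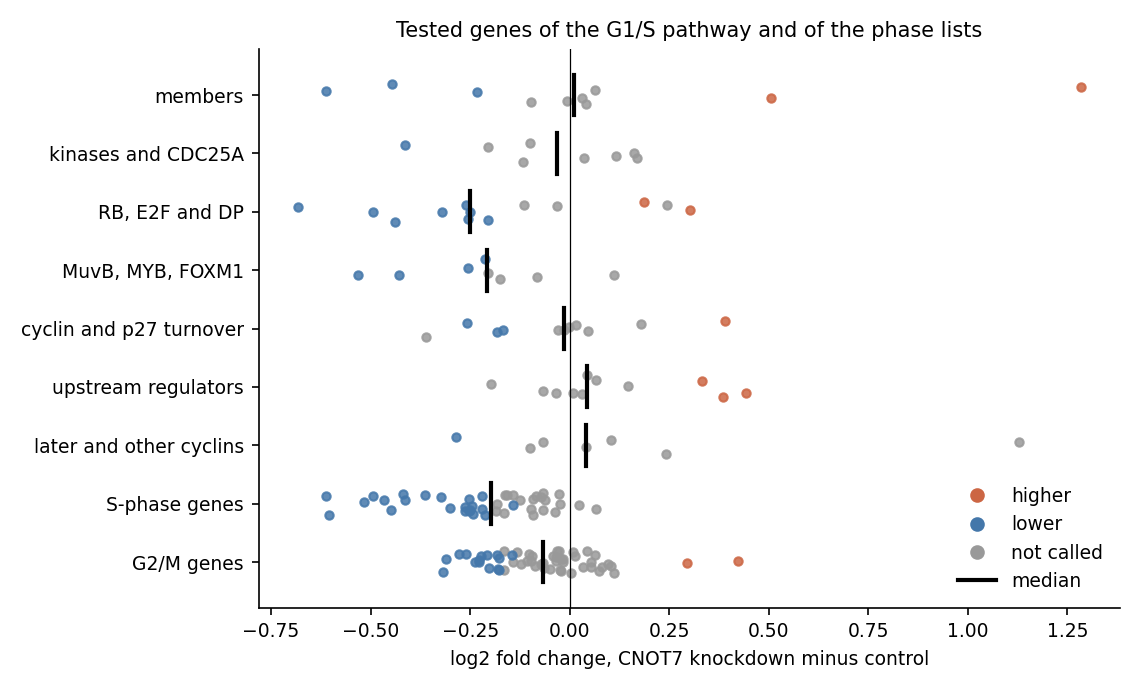
Log2 fold change, CNOT7 knockdown minus control (x axis), of every tested gene of the 10 G1 cyclins and inhibitors and of each pathway list, with called genes coloured and the median of a list as a black line. The medians lie at -0.20 for the S-phase list and -0.25 for the RB and E2F list, and at 0.012 for the 10 genes, of which CCND2 at 1.28 stands highest.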

How the data were processed

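RNA of 3 control and 3 CNOT7 knockdown libraries was sequenced, and the table deposited by the authors gave whole-number counts of reads per gene, with no normalization. The submitters' processing notes name CASAVA 1.8, fastp, HISAT2 2.0.5, featureCounts 1.5.0-p3, DESeq2 1.20.0 and GRCh38, and the strand setting is not given in the sources used here. Gene lengths deposited by the authors gave the levels per kilobase. Counts were tested with edgeR 4.0.16 (R 4.3.3, limma 3.58.1; TMM factors, filterByExpr, quasi-likelihood F test, Benjamini-Hochberg adjustment over 17574 genes, threshold 0.05), knockdown against control, without a replicate block. SE is the size of the log2 fold change over the square root of its F statistic. No pair of libraries of a group was a copy (chi-square per degree of freedom 3.25 to 10.6). Levels are means ± SD over libraries, and deep libraries limit only the counting part of the error. Alternatives were DESeq2 1.42.0, RLE factors, no filter, a minimum of 10 counts per library, a replicate block, cyclic loess offsets, thinning to the smallest library (seed 1), an absolute log2 fold change of at least 1, and each library left out. Exons and 3′ UTRs came from GENCODE 29. The script was tested on simulated data. The members and lists were chosen with earlier results of these data known. Named genes were the 10 members, CNOT7, CDKN1A, CDKN2A, genes with exons overlapping a member's, and in each pathway list up to 6 called genes by smallest adjusted p. Marker genes were named to check the cell type.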

Additional observations from a re-analysis of the deposited data

How the results depend on the processing

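The calls of all 10 G1 cyclins and CDK inhibitors were the same in 13 alternative fits, and log2 fold changes ranged from -0.25 to -0.15 for CCND1, 1.23 to 1.32 for CCND2, -0.52 to -0.38 for CCND3, -0.72 to -0.55 for CCNE2 and 0.43 to 0.57 for CDKN1C. Their highest adjusted p was 0.00928, 2.75e-07, 0.00161, 0.00899 and 0.00560 in that order. With an absolute log2 fold change of at least 1 also required, 1 gene was higher (CCND2) and 0 were lower. Of 405 alternative values, 361 kept their side of the threshold or stayed within 1.5 times the main count, and 44 counts moved further. No called gene changed direction. Among the genes not called, CCNE1 kept its sign in 11 of the 13 fits, CDKN2B in 10 and CDKN2D in 10. The cause was not tested.

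Same-numbered libraries had correlations of deviations of 0.0228, 0.153 and -0.0153, against -0.151 to 0.132 for differently numbered libraries. The value of replicate 2 was the highest, and those of the other numbers lay within the range of the differently numbered libraries. The numbers were not taken to pair the libraries. With the replicate block, 3202 of all genes were higher and 3306 lower, against 2329 and 2095 in the main fit. Why more genes passed was not tested. The list of kinases and activators, here called the kinase list, holds CDC25A, CDC37, CCNH and MNAT1 beside the CDK genes. Of this list CDC25A passed in all 13 fits, CDC37 and CDK6 in 5 each, and CDK2 and CDK7 in 1 each. CDC37, CCNH, MNAT1 and CDK7 were named after their values had been seen. In the fit with the replicate block 2 genes of the kinase list were higher and 3 lower, and 2 later cyclins higher and 2 lower. In addition, 2 turnover genes were higher, 1 upstream regulator lower and 4 mitosis genes higher. With DESeq2, 2 genes of the kinase list were lower and 1 RB and E2F gene higher. RLE factors left 1 RB and E2F gene higher. Without a filter, 2 genes of the kinase list were lower, 1 RB and E2F gene higher and 1 later cyclin higher. With at least 10 counts in every library, 1 gene of the kinase list and 1 later cyclin were higher. With the trend with abundance removed, 1 gene of the kinase list, 2 turnover genes and 1 later cyclin were higher. In that fit 5 mitosis genes were higher and 8 lower.

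Leaving out each library gave 1367 to 2219 lower genes in all, the lowest without control replicate 3. Of the S-phase list, 16 to 28 genes were lower. The ranges were 0 to 1 higher and 1 to 2 lower for the kinase list. For RB and E2F genes they were 1 to 2 higher and 5 to 8 lower. For turnover genes they were 1 to 2 higher and 0 to 4 lower, and for upstream regulators 0 to 1 lower. For later cyclins they were 0 to 1 higher and 1 to 2 lower, and for mitosis genes 7 to 16 lower. At the depth of CDKN2D, the lowest gene of the set, the 95% interval of the log2 fold change ran from -0.31 to 0.30, so smaller changes were not detectable.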
